A study of Homo sapiens with 4 samples.

Results

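The genes that encode the proteins of the mitochondrial ribosome were described across 4 RNA-sequencing libraries of Huh7, a human hepatoma cell line. Members were all listed gene symbols that start with MRPL or MRPS and go on with a number and at most a letter A, B or C. This gave 76 genes, 47 named for the large subunit (MRPL) and 29 for the small subunit (MRPS). They were 76 of the 14055 genes listed in all 4 deposited tables, and of the 19782 listed in any. Membership rests on names and not on measured values, though the set was chosen with earlier results of these data known.

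The study compared cells that received a lentivirus expressing ISL1, a homeobox transcription factor known from the embryonic heart, motor neurons and islets of the pancreas, with cells that received a blank lentivirus. Each group had 2 libraries, numbered 1 and 2, and all 4 came from passage 3 of the same line. The labels give no further genotype or agent, no promoter for the ISL1 virus and no statement on separate cultures, so a p-value measures only the spread between libraries, which may be technical. Pair 1 and pair 2 below mean the ISL1 and the blank library of that number.

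The mitochondrial ribosome translates the few messages of the mitochondrial genome, all of which encode core subunits of the respiratory chain and of ATP synthase. All of its proteins are encoded in the nucleus, made in the cytosol and imported, and only part of them have a counterpart in the bacterial ribosome. Hepatocytes, from which hepatoma cells derive, are rich in mitochondria. The names mislead in a few places: by structure MRPS30 and MRPS18A are large-subunit proteins, and MRPS36 is a subunit of the 2-oxoglutarate dehydrogenase complex rather than of the ribosome.

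Values were RPKM, read numbers divided by the length of the transcript and by the depth of the library. Depths recovered from the steps between low values ranged from 29429964 to 37134267 reads. ISL1 stood at 0.0454 and 8.22 RPKM in pair 1 (blank, then ISL1). In pair 2 it was listed at 0 in the blank library and stood at 1801 in the ISL1 library. The title of the second ISL1 library reads ISL2, but the design names no virus other than ISL1 and blank, so it was counted as ISL1. ISL2 itself was at 4.57, 2.08, 3.23 and 13.2 RPKM in blank 1, ISL1 1, blank 2 and ISL1 2. At least 11 of 12 hepatocyte and hepatoma markers reached 1 RPKM in every library, with summed levels of 23399, 24252, 26823 and 13314 RPKM in the same order, lowest in ISL1 2.

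The second blank library stood apart in 1 respect that touches every pair 2 difference below. HBB, the beta chain of adult haemoglobin, was at 398 RPKM there, listed at 0 in both ISL1 libraries and at 0.0495 in the first blank library. All 8 erythroid markers were listed in the pair 2 tables, 5 of them at 1 RPKM or more in the blank library (1032 RPKM summed) and none in the ISL1 library (1.399 RPKM summed, 5 listed at 0). Leukocyte markers were summed at 117 and 100.2 RPKM in those libraries, with 3 of 7 at 1 RPKM or more in each. Of 8 markers of cardiac, motor neuron or islet cells, 5 were listed in pair 2 and their sum went the other way. It was 7.18 RPKM in the blank library (1 at 1 RPKM or more) and 40.3 in the ISL1 library (4 at 1 RPKM or more). The rise lay mainly in the cardiac genes NPPA, TNNT2 and MYH6. MNX1, the only motor neuron or islet marker listed, stood at 5.95 and 6.46 RPKM, and CHAT, INS and GCG were listed in no table. In pair 1 only NPPA and MNX1 were listed, with sums of 1.53 (blank) and 1.73 RPKM (ISL1). Fibroblast and endothelial markers were summed at 3.25 and 5.46 RPKM in the blank and ISL1 libraries of pair 2. In bulk libraries more cells of a type and more RNA per cell cannot be told apart, and whether the erythroid RNA came from the cultured cells or entered the library in another way was not tested. The part of these marker differences in the pair 2 differences of the members was not tested either.

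The starts of these genes share sequence features that do not depend on any expression value. RefSeq promoter windows of build GRCh38.p14, from 250 bases before to 50 bases after the annotated start, were matched by symbol for 67 of the 76 members. The others are MRPL2, MRPL10, MRPL13, MRPL15, MRPL21, MRPL23, MRPL35, MRPS28 and MRPS36. On either strand, the letters CCGGAAG, a core bound by GABPA and other ETS factors, were in 29 of 67 members (43.3%) and in 16.5% of 15843 protein-coding genes. AAGATGGC, the core bound by YY1, was in 21 members (31.3%) and in 4.66% of genes. At least 1 of these 2 motifs was in 42 members (62.7%), against 20.03% of genes. The NRF1 (nuclear respiratory factor) core, GCGCA and GCGC with any 1 base between them, was in 8 members (11.9%) and 9.67% of genes, and the GC box GGGCGG in 41 members (61.2%) and 64.3% of genes.

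The YY1 letters had a preferred place and direction. In 16 members (23.9%, against 2.50% of genes) they read forward and began after the start, between positions 7 and 36 with a median of 16.5, where the first transcribed base is position 1. The first 30 transcribed bases of 6 such members are shown because their values are followed through the rest of the text, or, for MRPL46, because it shares its start region with MRPS11. Capitals mark the YY1 letters, which begin at position 14, 9, 22, 20, 20 and 17 in the order below.
MRPL45, chr17:38297168-38297197, plus strand: cctttgcgggaacAAGATGGCagcccccat
MRPL46, chr15:88467359-88467388, minus strand: gagaacgaAAGATGGCggcgcccgtaaggc
MRPL51, chr12:6493233-6493262, minus strand: acagctgcctgggtaaggcccAAGATGGCt
MRPS7, chr17:75261879-75261908, plus strand: ggggtcctcgtggccagccAAGATGGCtgc
MRPS24, chr7:43869488-43869517, minus strand: cccgcgctccgcttggcccAAGATGGCggc
MRPS27, chr5:72320211-72320240, minus strand: ccttttggtacgctccAAGATGGCtgcctc

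The 150 bases before the start are shown for 3 members whose ISL1 libraries both lay above both blank libraries. Capitals mark matches to the ETS or NRF1 letters on either strand, and GC boxes are left in lower case. MRPL51 holds the ETS letters at positions -119 (reverse strand) and -104 (forward), MRPS9 the NRF1 letters at -40 (reverse), and MRPL18 none of the ETS, YY1 or NRF1 letters in this stretch.
MRPL18, chr6:159789662-159789811, plus strand: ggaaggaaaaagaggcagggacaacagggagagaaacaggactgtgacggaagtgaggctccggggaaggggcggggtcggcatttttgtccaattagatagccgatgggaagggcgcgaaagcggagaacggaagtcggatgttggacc
MRPL51, chr12:6493263-6493412, minus strand: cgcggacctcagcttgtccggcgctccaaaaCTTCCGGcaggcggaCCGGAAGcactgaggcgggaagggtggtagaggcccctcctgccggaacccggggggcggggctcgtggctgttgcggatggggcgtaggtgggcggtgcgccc
MRPS9, chr2:105037919-105038068, plus strand: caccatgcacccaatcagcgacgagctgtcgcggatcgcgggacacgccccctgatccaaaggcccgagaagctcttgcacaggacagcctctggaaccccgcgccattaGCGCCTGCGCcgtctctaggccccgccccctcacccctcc

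A match is a run of letters and not a measured binding site. Members with the YY1 letters had median ISL1-minus-blank differences of 0.06 and -0.07 on the log2(RPKM + 1) scale in pair 1 and pair 2, and members without them 0.18 and -0.10. With the ETS letters the medians were 0.11 and -0.12, and without them 0.18 and -0.04. With the NRF1 letters (8 members) they were 0.26 and -0.47, and without them 0.17 and -0.06. With the GC box they were 0.18 and -0.0012, and without it 0.15 and -0.14. The signs were the same with and without each motif, and the differences between these medians were not tested.

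The mitochondrial ribosomal protein genes were well expressed in Huh7 cells. Their median level was 25.2, 24.2, 38.2 and 33.4 RPKM in blank 1, ISL1 1, blank 2 and ISL1 2, against 2.99, 2.84, 11.7 and 12.5 RPKM over all 11085 genes tested. All 76 members passed the filter of at least 1 RPKM in at least 2 libraries. Together they made up 0.783%, 0.901%, 0.705% and 0.647% of all RPKM of the genes listed in all 4 tables. The large-subunit median was 25.4, 27.0, 40.5 and 35.5 RPKM and the small-subunit median 25.02, 21.7, 33.0 and 26.9 RPKM. Their ratio thus stood between 1.02 and 1.32.

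Levels spread widely within the set. By mean log2(RPKM + 1) over the 4 libraries, the highest members were MRPL51, MRPS15 and MRPL41, and the lowest MRPS14, MRPL39 and MRPL42. MRPL42 was the lowest member in pair 1 but stood at 26.6 (blank) and 19.7 RPKM (ISL1) in pair 2. In both pair 2 libraries MRPL19 and MRPL15 were the lowest. MRPL51, a large-subunit protein with no bacterial counterpart, stood at 111, 165, 143 and 159 RPKM. MRPS15, the counterpart of bacterial S15, stood at 78.6, 84.7, 99.7 and 105 RPKM, with the pair 1 libraries below those of pair 2.

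**Figure D1:**
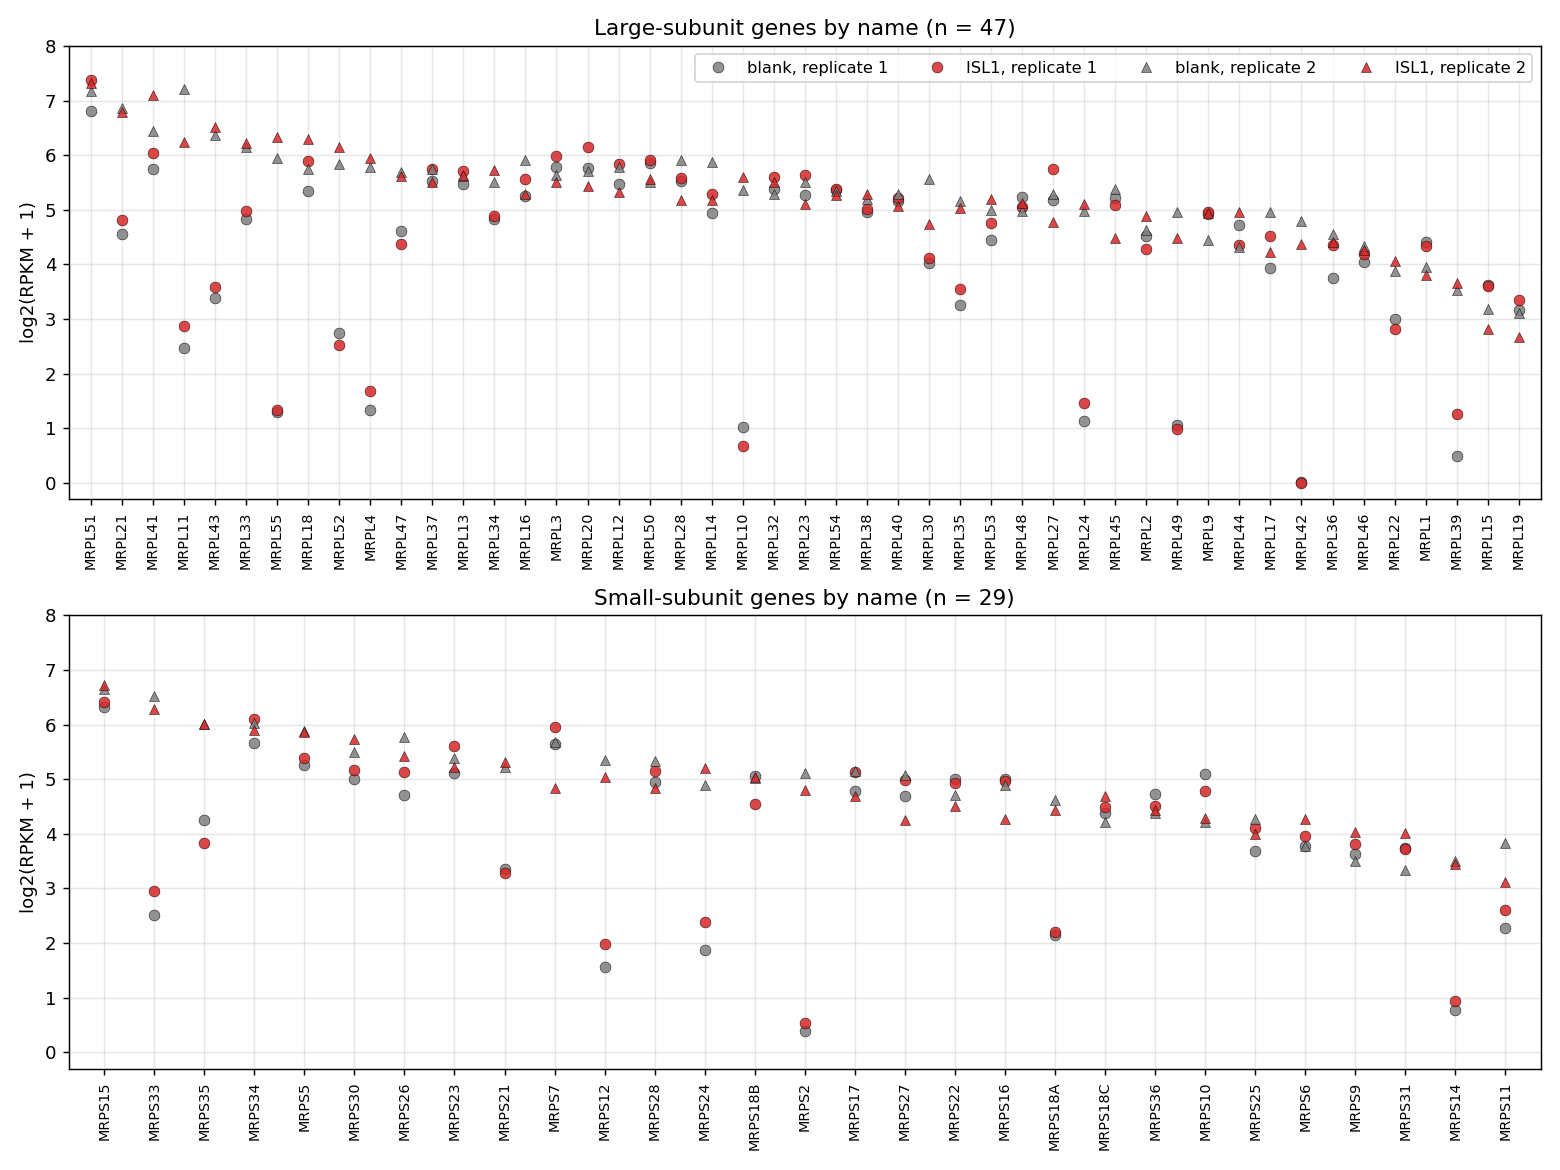
Level of every member in the 4 libraries, as log2(RPKM + 1), with large-subunit genes above and small-subunit genes below, ordered by their mean in pair 2. Grey is blank virus and red ISL1, circles are replicate 1 and triangles replicate 2; circles of the same gene lie close together, and for MRPL42, MRPS2, MRPL10 and others they lie far below the triangles.

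The largest differences among these libraries ran between the replicate numbers and not between the viruses. Across the 76 members, Pearson's r of log2(RPKM + 1) was 0.986 between the libraries of pair 1 and 0.904 between those of pair 2, but 0.32 between the blank libraries and 0.316 between the ISL1 libraries. These correlations run across genes, which are not independent replicates. In the second blank library 15 members stood at least 8 times higher than in the first (10 large, 5 small), none stood 8 times lower, and 50 were within 2-fold. Among all genes tested, 39.1% stood 8 times higher.

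The gap followed the number of annotated transcripts. Of the 24 members with 1 RefSeq transcript, 22 were within 2-fold between the blank libraries and r was 0.789. Of the 36 with 3 or more, 19 were within 2-fold, 12 stood 8-fold apart, and r was 0.077. Over all genes tested the 8-fold share was likewise 4.36% with 1 transcript and 48.2% with 3 or more.

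Whole reads and transcript lengths could be recovered for each member as the smallest whole numbers that give both RPKM values of a pair. Where a shared length could be reached by small whole multiples, reads and length were multiplied up to it. On these terms the length was the same in both pairs for 62 members and differed for 14. Of those 14, 11 were among the 15 that stood 8-fold apart. A recovered length can be a whole fraction of the true one, so values such as 115 bases (MRPS33, pair 2) need not be transcript lengths. MRPL42, a large-subunit protein specific to mitochondria, had 1 read in blank 1 and 0 in ISL1 1, both under a floor of 3 reads, at a length of 3244 bases. It had 1430 reads in blank 2 and 909 in ISL1 2, at 1571 bases. MRPS2, the counterpart of bacterial S2, had 17, 29, 1753 and 1197 reads, with lengths of 1719 and 1510 bases. In both genes the pair 1 libraries were low and the pair 2 libraries high, whichever virus was used.

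A difference in length did not go with every gap. MRPL11, a protein at the factor-binding site of the large subunit, was scaled to 1704 bases in both pairs and had 251 and 401 reads in pair 1 against 8579 and 3724 in pair 2. MRPL39 had 15, 60, 424 and 399 reads at 1171 bases, and MRPL49 had 74, 76, 2193 and 1340 at 2119 bases. The remaining gene of that kind, MRPS24 (counterpart of bacterial S3), was the only one of the 15 with 1 RefSeq transcript. It had 61, 113, 706 and 756 reads at 715 bases. Its exons are shared by the readthrough transcript URGCP-MRPS24, listed at 0, 0.0964, 16.3 and 21.8 RPKM.

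Gene models also differed between the pairs in what was listed. The pseudogenes MRPL42P5, MRPL45P2 and MRPS31P5 were listed only in pair 1, at 0.230 to 1.09 RPKM. How reads were divided between members and their processed pseudogenes, or between overlapping genes on opposite strands, is not given in the sources used here. Levels of a member can therefore be compared within a pair. In a pooled fit of 2 libraries against 2 the gap cancels from the fold change but widens its standard error.

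**Figure D2:**
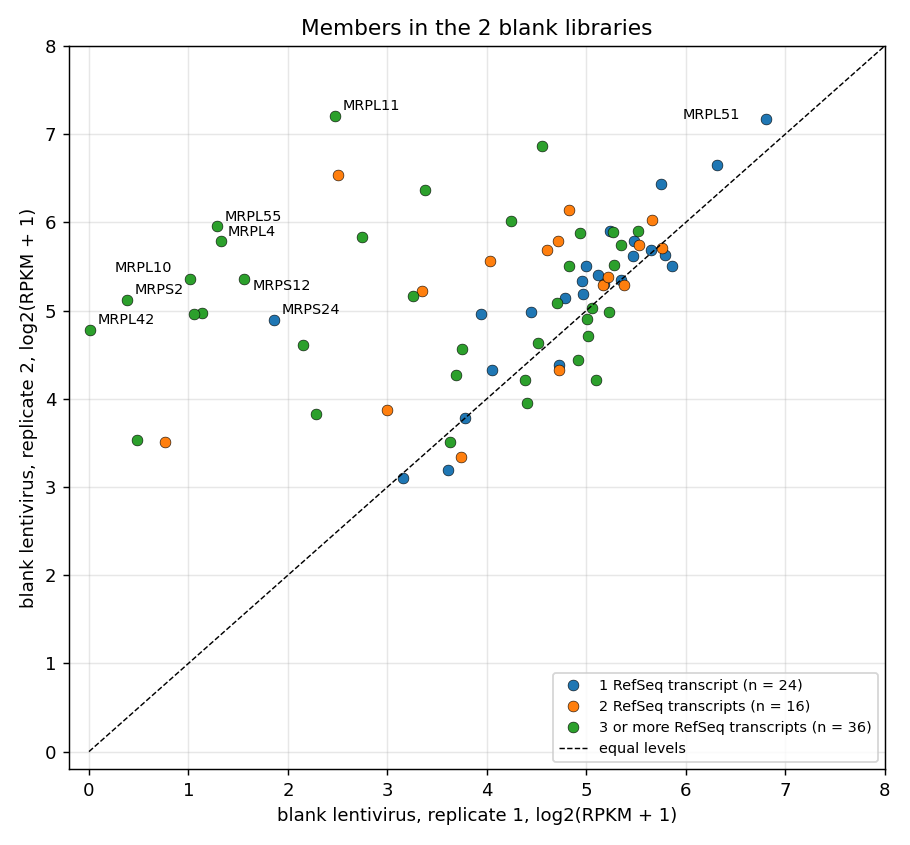
Members in the blank library of replicate 1 (horizontal) and of replicate 2 (vertical), both as log2(RPKM + 1), coloured by number of RefSeq transcripts, with a dashed line of equal levels. Of the 24 genes with 1 transcript 22 are within 2-fold, and the 15 genes that are 8-fold apart all lie above the line.

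With ISL1, the mitochondrial ribosomal protein genes as a set stood slightly higher in pair 1 and slightly lower in pair 2. Within pair 1, 56 of 76 members were higher with ISL1, where 49.4% of all genes tested were, and the median difference was 0.18 on the log2(RPKM + 1) scale against -0.00 over all genes. Within pair 2, 33 of 76 were higher, where 54.6% of all genes were, and the median difference was -0.07 against 0.06 over all genes. The set's median minus that of all genes lay between 0.15 and 0.25 in pair 1, and between -0.17 and -0.11 in pair 2, under all scalings, pseudocounts and filters tried. Each pair has 1 library per group, so neither value has a test. ISL1 itself stood at 8.22 RPKM in the first ISL1 library and at 1801 in the second. Whether the opposite directions of the pairs go with that gap was not tested.

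Most single members differed by less than 1.5-fold, taken as a ratio of RPKM + 1. In pair 1, 2 members were at least 1.5-fold higher (5.99% of all genes were) and none was that much lower (7.03% of all genes were). In pair 2, 3 were higher by that much and 11 lower, where 17.8% and 12.3% of all genes were. Of the 76 members 22 were higher with ISL1 in both pairs and 9 lower in both, against 23.1% and 19.1% of all genes. The most frequent pattern was higher in pair 1 and lower in pair 2, with 34 members, against 26.3% of all genes. The reverse was seen in 11, against 31.5%.

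The pooled test of 2 libraries against 2 called no gene. With limma, 0 of 76 members and 0 of 11085 genes passed an adjusted p of 0.05 (0.0% of genes). At an unadjusted p under 0.05 there were 15 genes (0.135%) and none of the members. Without the second blank library limma again called 0 genes, with 23 at an unadjusted p under 0.05 and none of them a member. Because the groups hold the gap between the pairs as error, the count does not show that the members were unchanged. The members with the smallest unadjusted p were MRPL18 (0.183) and MRPL45 (0.251), both at an adjusted p of 1.00.

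The large and the small subunit differed little from each other. In pair 1, 35 of 47 large-subunit and 21 of 29 small-subunit genes were higher with ISL1, with median differences of 0.18 and 0.17. In pair 2, 22 and 11 were higher, with medians of -0.07 and -0.12. The large-minus-small difference of these medians was 0.0095 in pair 1 and 0.048 in pair 2. It turned to -0.14 in pair 2 over the 15 large and 9 small members with 1 RefSeq transcript, and to -0.068 over members within 2-fold between the blank libraries. With MRPS30 and MRPS18A counted as large and MRPS36 left out, it was -0.0054 and 0.073. No direction between the subunits held under all of these choices.

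Among large-subunit genes, MRPL18 differed by nearly the same amount in both pairs. It encodes the counterpart of bacterial L18, which binds 5S ribosomal RNA in bacteria, and stood at 39.7, 58.5, 52.6 and 77.7 RPKM in blank 1, ISL1 1, blank 2 and ISL1 2. Both ISL1 libraries lay above both blank libraries. The ratio of ISL1 to blank was 1.47 (95% counting interval 1.38 to 1.58) in pair 1 and 1.48 (1.39 to 1.57) in pair 2. Over the 2 libraries of each group the log2 fold change came to 0.55 with an SE of 0.34 (limma, adjusted p = 1.00). With each library left out in turn it ranged from 0.35 to 0.75, lowest without the first blank or the second ISL1 library.

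MRPL51 and MRPL41 were higher with ISL1 in both pairs, in unlike amounts. For MRPL51, whose start region is printed above, the ISL1 libraries at 165 and 159 RPKM lay above the blank libraries at 111 and 143. Its difference was 0.57 in pair 1 and 0.15 in pair 2. MRPL41, a mitochondria-specific large-subunit protein, stood at 52.7, 64.5, 85.5 and 135 RPKM, so that the first ISL1 library lay below the second blank library and the groups overlapped. Its ratio was 1.22 (1.13 to 1.33) in pair 1 and 1.58 (1.49 to 1.68) in pair 2.

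MRPL45, which lies at the exit of the peptide tunnel and ties the ribosome to the inner membrane, was the only member with both ISL1 libraries below both blank libraries. It stood at 36.1, 32.9, 40.5 and 21.4 RPKM. The ratio was 0.910 (0.855 to 0.968) in pair 1 and 0.529 (0.492 to 0.568) in pair 2, so that the larger part of the difference came from pair 2. The pooled log2 fold change was -0.51 (SE 0.37, limma adjusted p = 1.00), -0.81 without the first ISL1 library and -0.21 without the second.

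MRPL28 and MRPL30, counterparts of bacterial L28 and L30, were close to equal in pair 1 and lower with ISL1 in pair 2. MRPL28 stood at 45.0, 46.7, 58.8 and 35.0 RPKM, and MRPL30 at 15.3, 16.4, 46.1 and 25.6. MRPL28 was thus lowest, and MRPL30 intermediate, in the second ISL1 library. MRPL39 stood at 0.397, 1.38, 10.6 and 11.6 RPKM. Its pair 1 difference of 0.77, the largest of any member, rests on 15 and 60 reads, with a ratio of 3.48 (1.95 to 6.60), and its pair 2 ratio of 1.096 has an interval that includes 1 (0.954 to 1.26).

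The stalk proteins, which recruit translation factors to the large subunit, differed in opposite directions in the 2 pairs. MRPL12, which is also reported to bind the mitochondrial RNA polymerase, stood at 43.6, 56.2, 54.1 and 39.0 RPKM, higher with ISL1 in pair 1 and lower in pair 2. MRPL10, which anchors MRPL12, stood at 1.03, 0.594, 40.0 and 47.5 RPKM, lower in pair 1 (63 and 42 reads) and higher in pair 2. MRPL37, a mitochondria-specific protein, stood at 45.3, 52.7, 52.6 and 44.7 RPKM, with differences of 0.22 and -0.23.

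MRPS30 and MRPS18A, large-subunit proteins in spite of their names, are given here. MRPS30 stood at 31.0, 35.1, 44.5 and 52.6 RPKM, higher with ISL1 in both pairs by 0.17 and 0.24, with overlapping groups. MRPS18A stood at 3.44, 3.61, 23.5 and 20.7 RPKM, and its gap between pairs was far larger than either difference within a pair.

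No member of either subunit differed by 1.5-fold or more in the same direction in both pairs. In pair 1 no small-subunit gene differed by that much in either direction. MRPS9 and MRPS6, counterparts of bacterial S9 and S6, had both ISL1 libraries above both blank libraries. MRPS9 stood at 11.4, 13.1, 10.4 and 15.4 RPKM, with ratios of 1.15 (1.02 to 1.28) and 1.48 (1.32 to 1.66). MRPS6 stood at 12.8, 14.6, 12.7 and 18.3 RPKM, with ratios of 1.14 (1.00 to 1.30) and 1.44 (1.27 to 1.64).

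MRPS24 stood at 2.64, 4.26, 28.8 and 35.9 RPKM, higher with ISL1 in both pairs by 0.53 and 0.31, while its pooled standard error of 1.60 reflects the gap between the pairs.

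MRPS7 and MRPS27 were higher with ISL1 in pair 1 and lower in pair 2. MRPS7, which nucleates assembly of the small-subunit head in bacteria, stood at 49.4, 60.8, 50.5 and 27.8 RPKM. MRPS27, a pentatricopeptide-repeat protein, stood at 25.02, 30.5, 33.0 and 18.2 RPKM. Both had ratios of about the same size within each pair, 1.23 and 1.22 in pair 1 and 0.551 and 0.551 in pair 2, and in both the second ISL1 library was the lowest of the 4. MRPS16, counterpart of bacterial S16, stood at 31.2, 30.1, 28.9 and 18.2 RPKM, again lowest in the second ISL1 library.

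The decoding-site protein MRPS12 stood at 1.94, 2.94, 39.9 and 31.9 RPKM, and MRPS2 at 0.306, 0.454, 33.9 and 26.9, both higher with ISL1 in pair 1 and lower in pair 2. MRPS14, counterpart of bacterial S14, stood at 0.701, 0.909, 10.4 and 9.91 RPKM, with counting intervals of its ratio that include 1 in both pairs (0.897 to 1.89 and 0.672 to 1.35). Its pair 2 interval rests on 77 and 63 reads at a recovered length of 216 bases, against 2252 in pair 1. If the true length is a multiple of 216, that interval is too wide. MRPS15 differed by 0.11 and 0.07.

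MRPS18B and MRPS18C, with MRPS18A the 3 paralogs of bacterial S18, gave unlike values. MRPS18B stood at 32.4, 22.4, 31.7 and 32.1 RPKM, lower with ISL1 in pair 1 alone, by a ratio of 0.693 (0.644 to 0.747). MRPS18C stood at 19.9, 21.6, 17.5 and 24.8 RPKM, with both ISL1 libraries above both blank libraries and a pair 2 ratio of 1.41 (1.28 to 1.57). MRPS36 stood at 25.4, 21.7, 19.8 and 20.6 RPKM, with differences of -0.22 and 0.05.

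**Figure D3:**
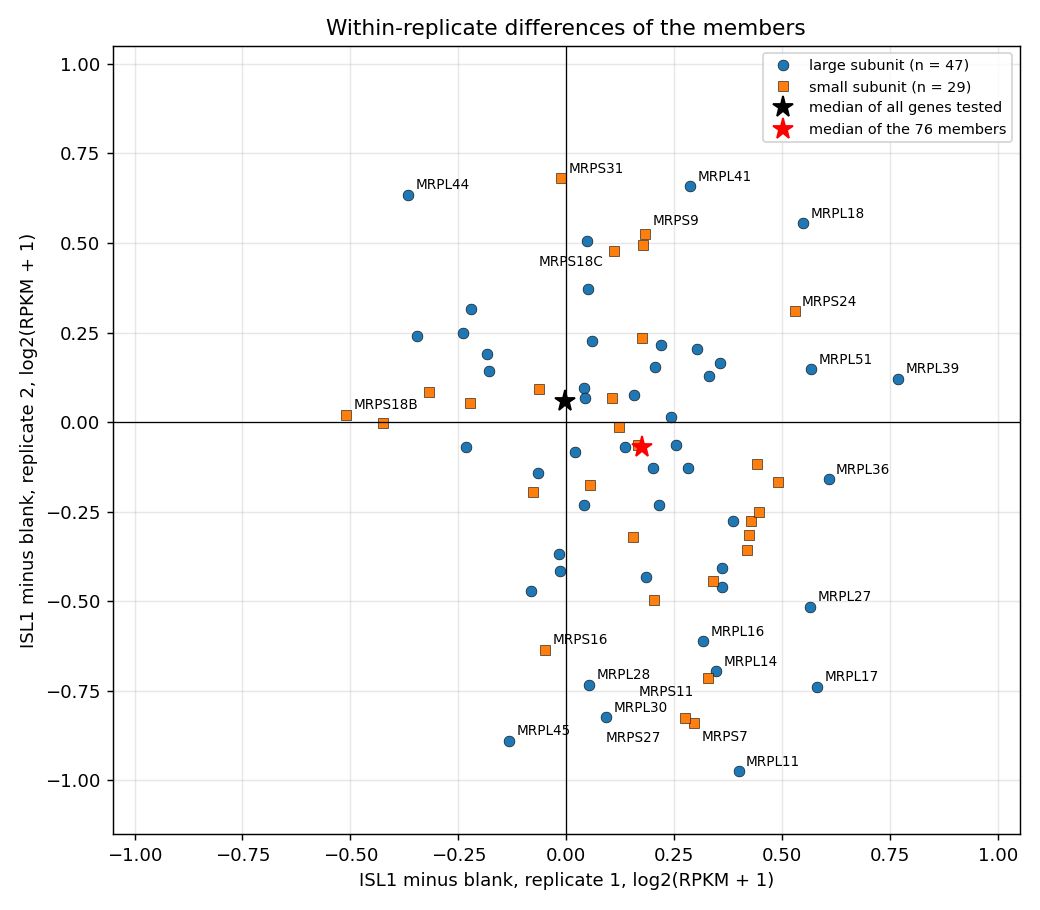
Difference between ISL1 and blank of each member in pair 1 (horizontal) and pair 2 (vertical), on the log2(RPKM + 1) scale, with circles for the large and squares for the small subunit. The lower right part, higher in pair 1 and lower in pair 2, holds 34 of 76 members, and the median of the members (red star) lies at 0.18 and -0.07 beside that of all genes (black star) at -0.00 and 0.06.

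Over all members, both ISL1 libraries lay above both blank libraries for 8 genes (MRPL9, MRPL13, MRPL18, MRPL32, MRPL51, MRPS6, MRPS9 and MRPS18C) and below both for MRPL45. Among all genes tested these shares were 5.52% and 5.08%. The counting interval of the ratio left out 1 for 51 members in pair 1 and 57 in pair 2, where it did for 55.7% and 80.6% of genes. It lay on the same side in both pairs for 12 members, 11 of them higher with ISL1 (MRPL4, MRPL18, MRPL32, MRPL41, MRPL43, MRPL51, MRPL53, MRPS6, MRPS9, MRPS24 and MRPS30) and MRPL45 lower. Among all genes tested it did so for 9.4% on the higher side and 8.04% on the lower. These intervals cover counting error only and not the spread between cultures, and their width depends on the whole factor of the recovered reads.

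The 11 members at least 1.5-fold lower with ISL1 in pair 2 were MRPL11, MRPL14, MRPL16, MRPL17, MRPL28, MRPL30, MRPL45, MRPS7, MRPS11, MRPS16 and MRPS27. All but MRPL45 and MRPS16 were higher with ISL1 in pair 1. MRPL11 was at 147 RPKM in blank 2 and 74.3 in ISL1 2, but at 4.56 and 6.34 in pair 1. MRPL17, counterpart of bacterial L17, was at 30.2 and 17.7 RPKM in pair 2 and at 14.3 and 21.97 in pair 1. The 3 members at least 1.5-fold higher in pair 2 were MRPL41, MRPS31 (9.14 to 15.2 RPKM) and MRPL44 (19.0 to 30.1 RPKM), an RNase III-like protein, and the last was lower in pair 1 (25.4 to 19.5 RPKM).

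Divided by origin, members with a bacterial counterpart and members classed as specific to mitochondria gave these values. Of the paralogs of bacterial S18, MRPS18A and MRPS18B were counted among the specific ones and MRPS18C among those with a counterpart. The 30 large-subunit genes with a counterpart had medians of 0.23 and -0.13 in pair 1 and pair 2, and the 19 mitochondria-specific ones, with MRPS30 and MRPS18A sorted by structure, 0.04 and 0.10. In the small subunit the 16 with a counterpart had medians of 0.17 and -0.04, and the 10 specific ones 0.35 and -0.18. The differences between these classes were not tested. Higher with ISL1 in both pairs were 9 of 30, 8 of 19, 5 of 16 and none of 10, in the same order.

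Mitochondrial ribosomal proteins that carry other symbols gave the same signs. The 7 such genes tested had medians of 0.15 and -0.16. CHCHD1, a small-subunit protein, stood at 19.3 (blank 1), 34.4 (ISL1 1), 37.6 (blank 2) and 28.8 RPKM (ISL1 2). PTCD3, a pentatricopeptide-repeat protein of the small subunit, stood at 24.0, 24.9, 22.4 and 16.2 RPKM. GADD45GIP1, a large-subunit protein, was higher with ISL1 in both pairs, at 73.7, 81.7, 97.0 and 106 RPKM.

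Factors that build the mitochondrial ribosome were mostly higher with ISL1 in pair 1 and lower in pair 2. Of 21 assembly and ribosomal RNA modification factors tested, 15 were higher in pair 1 and 3 in pair 2, with medians of 0.05 and -0.31, and none had an unadjusted p under 0.05. OXA1L, the inner-membrane insertase that receives nascent chains and was listed with them, was lower in both pairs, at 94.0, 75.2, 110.3 and 76.5 RPKM. Its ISL1 libraries lay below both blank libraries (log2 fold change -0.42, SE 0.26, limma adjusted p = 1.00). MTERFD1, also known as MTERF3, was higher in both, at 4.50, 8.42, 6.52 and 9.97 RPKM.

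Of 14 translation factors, 9 were higher with ISL1 in pair 1 and 7 in pair 2, with medians of 0.03 and -0.07. TUFM, the elongation factor that brings aminoacyl-tRNA to the ribosome, stood at 83.7, 97.7, 100.3 and 63.2 RPKM, and TACO1, a translational activator of COX1, at 19.0, 17.3, 21.3 and 18.3. The 9 genes of mitochondrial transcription and message stability had medians of 0.01 and 0.40. LRPPRC, which stabilises mitochondrial messages, stood at 57.5, 47.1, 42.6 and 33.9 RPKM, and TFB2M, a transcription initiation factor, at 16.2, 19.3, 12.1 and 16.3.

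The 8 regulators of mitochondrial biogenesis had medians of 0.04 and 0.09. YY1, whose core letters recur at the starts of the members, stood at 28.1, 29.6, 25.6 and 34.5 RPKM, with both ISL1 libraries above both blank libraries (log2 fold change 0.25, SE 0.32, limma adjusted p = 1.00). ESRRA, an orphan nuclear receptor of energy metabolism, stood at 20.6, 14.6, 21.8 and 17.7 RPKM, with both ISL1 libraries below both blank libraries.

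Set beside 2 other groups of protein complexes, the members' medians had the signs of the respiratory chain in both pairs and of the cytosolic ribosome in pair 2 only. Of 76 nuclear-encoded respiratory chain subunits tested, 58 were higher with ISL1 in pair 1 and 25 in pair 2, with medians of 0.18 and -0.19, and 42 were higher in pair 1 and lower in pair 2. Of 79 cytosolic ribosomal protein genes 17 and 36 were higher, with medians of -0.18 and -0.04, and 34 were lower in both pairs. The difference between the sets was not tested, since genes of a set are not replicates.

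**Figure D4:**
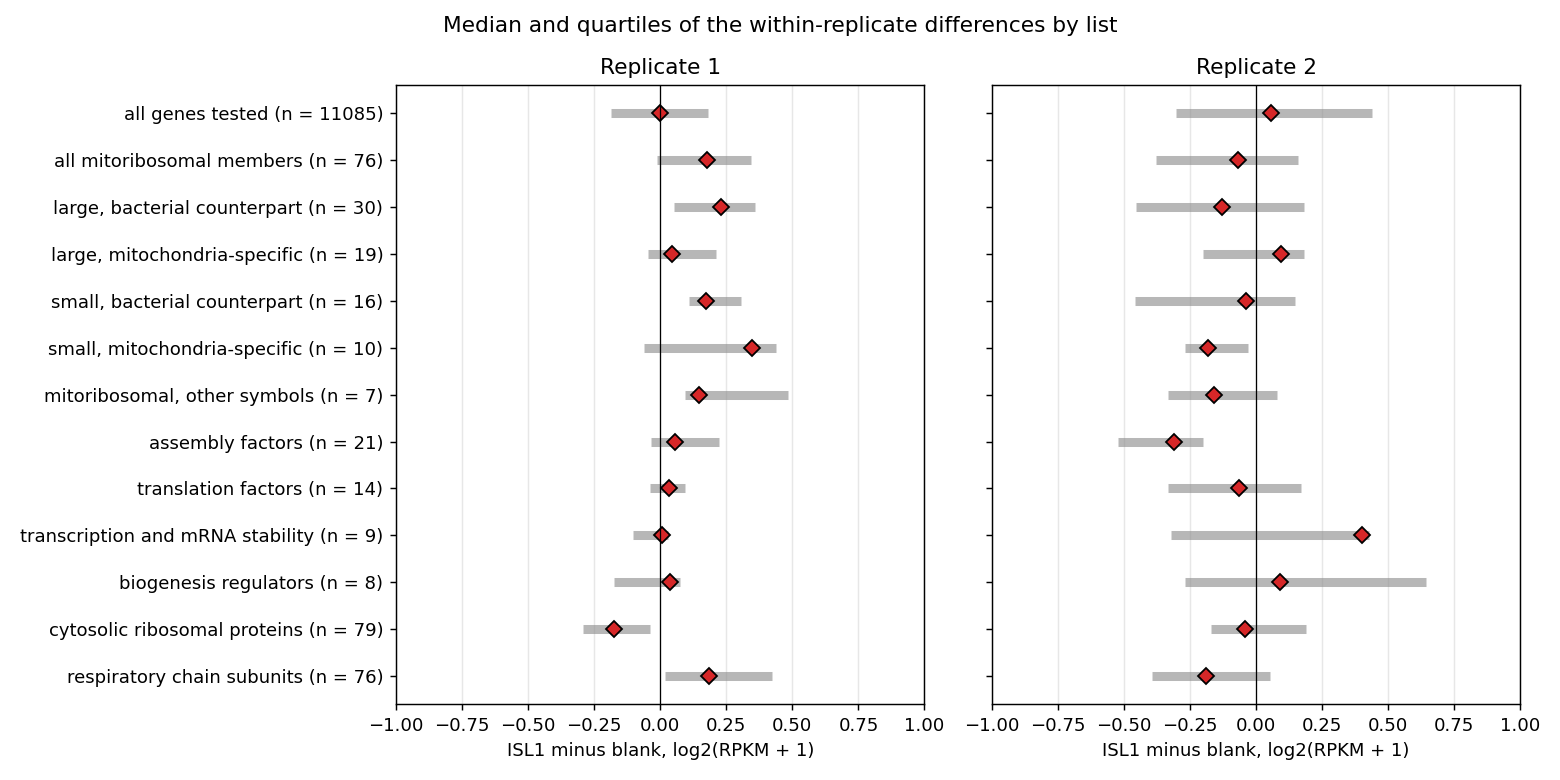
Median (diamond) and quartiles (bar) of the ISL1-minus-blank differences in each gene list, on the log2(RPKM + 1) scale, in replicate 1 (left) and replicate 2 (right), with the number of genes tested. The members and the respiratory chain subunits have medians of 0.18 and 0.18 on the left and -0.07 and -0.19 on the right, and the cytosolic ribosomal proteins -0.18 and -0.04.

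Many members start close to another gene that runs the other way. Of the 67 members in the promoter table, 19 (28.4%) had a head-to-head neighbour whose start lay within 1000 bases, against 12.3% of the 15843 genes. MRPL46 and MRPS11, both members, start 320 bases apart. MRPS12 faces SARS2, the mitochondrial seryl-tRNA synthetase, at 181 bases, and MRPL49 faces FAU, which encodes a cytosolic ribosomal protein, at 49 bases. For the 18 members whose neighbour had values, the difference with ISL1 had the same sign in both genes in 11 cases in pair 1 and in 9 in pair 2, with MRPL46 and MRPS11 counted once from each side.

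MRPL18 and its neighbour TCP1, a subunit of the cytosolic chaperonin, start 210 bases apart, with the MRPL18 stretch printed above between them, and both were higher with ISL1 in both pairs. TCP1 stood at 11.01, 14.9, 119.5 and 177 RPKM, with differences of 0.41 and 0.56 beside 0.55 and 0.55 for MRPL18. MRPL46 differed by 0.14 and -0.07 and MRPS11 by 0.33 and -0.72. MRPL51 lies 840 bases from NCAPD2, a condensin subunit, which differed by 1.14 and -0.38, so that its sign was that of MRPL51 in pair 1 only. Where neighbours overlap, reads of the 2 genes cannot be told apart without strand.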

How the data were processed

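RNA of 4 Huh7 libraries was sequenced on an Illumina HiSeq, per the labels' protocols. The authors deposited 1 table of gene symbols and RPKM per library, without counts. Per the submitters' processing notes, CASAVA 1.4, BWA and build hg19 were used. Not given in the sources used here were the annotation, the counting program and whether strand was used. The replicate 1 tables list 16640 genes and hold 0.0001 where the replicate 2 tables (17197 genes) hold 0; both are called 0 here. Mapped reads came from the exact ratios of low RPKM values: 32289510 and 37134267 (blank and ISL1, first pair), 34274524 and 29429964 (second pair). One read in 1 kb was then worth 0.0269 to 0.034 RPKM. Whole reads were recovered for 99.9% and 98.7% of genes in the first and second pair (within 1e-05) and for all 76 members. They are known only up to a common whole factor per gene. For some members the reads and length of a pair were multiplied up to a length shared by both pairs. Their counting intervals (exact, 95%) are then narrower than those of the smallest reads. The intervals cover counting error only. No count test was run, since RPKM are not counts.

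Genes listed in all 4 tables at 1 RPKM or more in at least 2 libraries (11085 of 14055) were tested with limma 3.58.1 (R 4.3.3, with trend) as log2(RPKM + 1). The fit set 2 libraries against 2 and was two-sided, with Benjamini-Hochberg adjustment over all genes and a threshold of 0.05. This scale understates differences of low genes. The smallest p of an exact permutation of 2 against 2 is 0.333. On simulated data the fit recovered added changes at a small spread between libraries, but not at the spread seen here, so a lack of calls does not show a lack of change. Other steps used SciPy 1.17.1, pandas 2.3.3, NumPy 2.4.6 and matplotlib 3.10.9 under Python 3.11.15. Alternatives were other pseudocounts, filters and scalings, a replicate block, each library left out, subunits by structure, members with 1 RefSeq transcript, means in place of medians and, chosen after seeing the data, members within 2-fold between the blank libraries. The members and lists were chosen with earlier results of these data known. Named genes are, per subunit, the 3 largest mean differences in each direction, the 3 highest and 3 lowest levels, members chosen by role, and the 2 genes of smallest p per list. Genes named elsewhere were chosen after their values were seen. RefSeq symbols gave transcript numbers for 99.7% of tested genes.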

Additional observations from a re-analysis of the deposited data

How the results depend on the processing

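No member was called under any setting run, and no gene except 1 (not a member) with quantile normalization. Numbers alone do not pair the libraries. With the replicate block, 0 genes were called, with 260 at an unadjusted p under 0.05, and MRPL18 had an unadjusted limma p of 0.138. Deviations of same-numbered libraries correlated at 0.882 over all genes and 0.944 over the members, with 2 pairs only. Median-ratio scaling moved the pair 2 median of all genes from 0.06 to -0.11, that of the members to -0.26, that of the large subunit to -0.26, and the members higher in both pairs from 22 to 13. The large-minus-small difference became 0.038 (pair 1) and -0.14 (pair 2) with 1-transcript members, 0.011 (pair 2) with means, and -0.068 (pair 2) with members within 2-fold between the blank libraries, of which 5 were lower in both pairs. The pair 2 median of the 9 small-subunit members with 1 transcript was 0.05. The sign of the fold change held in 180 of 182 named-member values under settings that keep all libraries. The changed filters and the replicate block leave a fold change as it is, so their part of the 182 values could not turn. MRPS2 turned to 0.059 with a pseudocount of 0.1 and MRPS12 to -0.021 with quantile normalization. With 1 library left out (the lone library is assumed to vary like the other group), the sign turned in 31 of 104 values of 19 members. The log2 fold changes then ranged from -2.52 to 2.41 for MRPL10, -0.31 to 0.21 for MRPL12, -1.13 to 0.40 for MRPL30, -0.12 to 0.11 for MRPL37, -1.08 to 1.97 for MRPL39, -0.057 to 1.00 for MRPL41, -2.60 to 2.17 for MRPL42, -1.85 to 1.95 for MRPS12, -1.32 to 1.42 for MRPS14, -0.083 to 0.26 for MRPS15, -0.69 to 0.0049 for MRPS16, -1.29 to 1.17 for MRPS18A, -0.49 to 0.0058 for MRPS18B, -2.45 to 2.29 for MRPS2, -1.10 to 1.94 for MRPS24, -0.63 to 0.084 for MRPS27, -0.080 to 0.49 for MRPS30, -0.26 to 0.089 for MRPS36 and -0.82 to 0.28 for MRPS7. With 1 library left out the groups no longer hold the same replicate numbers, so the gap between the pairs enters the fold change. The cause of the other moves was not tested. The sign held for MRPL18 (0.35 to 0.75), MRPL28 (-0.54 to -0.14), MRPL45 (-0.81 to -0.21), MRPL51 (0.17 to 0.54), MRPS6 (0.18 to 0.49), MRPS9 (0.24 to 0.47) and MRPS18C (0.20 to 0.39). For all of these but MRPL28 it could not turn, since both ISL1 libraries lay on the same side of both blank libraries. Depth limits the pair 1 values of 10 members under 100 reads in the first blank library.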
